A study of Mus musculus with 6 samples.

Results

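The histone modifier and Polycomb genes of mouse gastruloids were taken by symbol: every gene named Kdm, Kmt, Kat, Hdac, Prmt, Setd, Ezh, Cbx, Pcgf or Phc followed by a number and at most 1 letter, together with Eed, Suz12, Jarid2, Rnf2 and Ring1. The rule found 84 of the 53819 gene symbols counted, and 82 of the 84 had enough reads for a test, among 17155 genes tested in all. Gastruloids are aggregates of mouse embryonic stem cells (ESCs), here of the E14 line, that in culture elongate and form a posterior pole. The 3 budesonide libraries were made from aggregates kept in budesonide, which is a synthetic glucocorticoid, for 80 h, and the 3 untreated libraries from aggregates labelled as untreated controls of the same line. Messenger RNA was sequenced to 5666168 to 7476862 counted reads per budesonide library and 6336709 to 7018327 per untreated library, of which the 84 genes held 1.13 to 1.16% with budesonide and 1.06 to 1.10% untreated. The labels name neither a vehicle nor the age of the aggregates nor the culture behind each replicate, so the spread between libraries may be technical.

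Histone tails carry acetyl and methyl groups that acetyltransferases and methyltransferases write and that deacetylases and demethylases remove. Polycomb group proteins form a pair of complexes: PRC2 methylates lysine 27 of histone H3 (H3K27) and PRC1 ubiquitinates histone H2A, and in ESCs both sit at CpG-rich promoters of developmental genes and keep them low until differentiation. Several subunits of each complex are encoded by alternative paralogs, and a given complex holds a single one of them.

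With budesonide, 21 of the 82 tested genes rose and 9 fell past a threshold of 0.05 on the p-value that edgeR's quasi-likelihood test gave after Benjamini-Hochberg adjustment over all 17155 genes. Together that was 36.6%, against 28.7% of all genes tested (15.2% higher and 13.5% lower). Most of the genes were well covered, and well-covered genes pass more often. Among the 69 with a mean of at least 10 CPM (reads scaled to library size with TMM factors) 42.0% were called, against 41.7% of all genes at that level, so the overall share of called genes was near the background. The median log2 fold change, budesonide over untreated, was 0.04 over the 82 genes and -0.02 over all genes tested. The changes were small. The tested genes ran from -0.96 (Cbx2) to 0.87 (Kat2b) on the log2 scale, 9 called genes passed 1.5-fold (background 13.0%), and none passed 2-fold (background 5.10%). Every budesonide library was above every untreated one in 25 of the 82 genes and below in 20, against 19.8% of all genes tested above and 19.8% below, 39.6% together. The split of the calls depended on the scaling in part: in place of 21 rises and 9 falls, upper quartile scaling gave 20 and 20 and library totals alone gave 19 and 24 (rises then 44.2% of the calls), while RLE size factors gave 21 and 9.

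The classes differed in their counts. Lysine demethylases gave 9 rises and 1 fall among 17 tested, PRC2 3 rises and 1 fall among 5, PRC1 3 rises and 3 falls among 14, and the HP1 proteins 1 fall among 3. Lysine methyltransferases gave 2 rises and 2 falls among 16, acetyltransferases 2 rises and no fall among 8, deacetylases 2 rises and 1 fall among 11, and arginine methyltransferases neither among 8. Of all genes averaging at least 10 CPM, 41.7% were called. At that level the share was 80.0% in PRC2, 66.7% in lysine demethylases and 60.0% in PRC1. It was 33.3% in HP1 genes and deacetylases, 25.0% in lysine methyltransferases and acetyltransferases, and 0% in arginine methyltransferases. The difference between classes was not tested. RNA of whole aggregates was measured, so fewer cells of a type and less RNA per cell cannot be told apart.

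**Figure D1:**
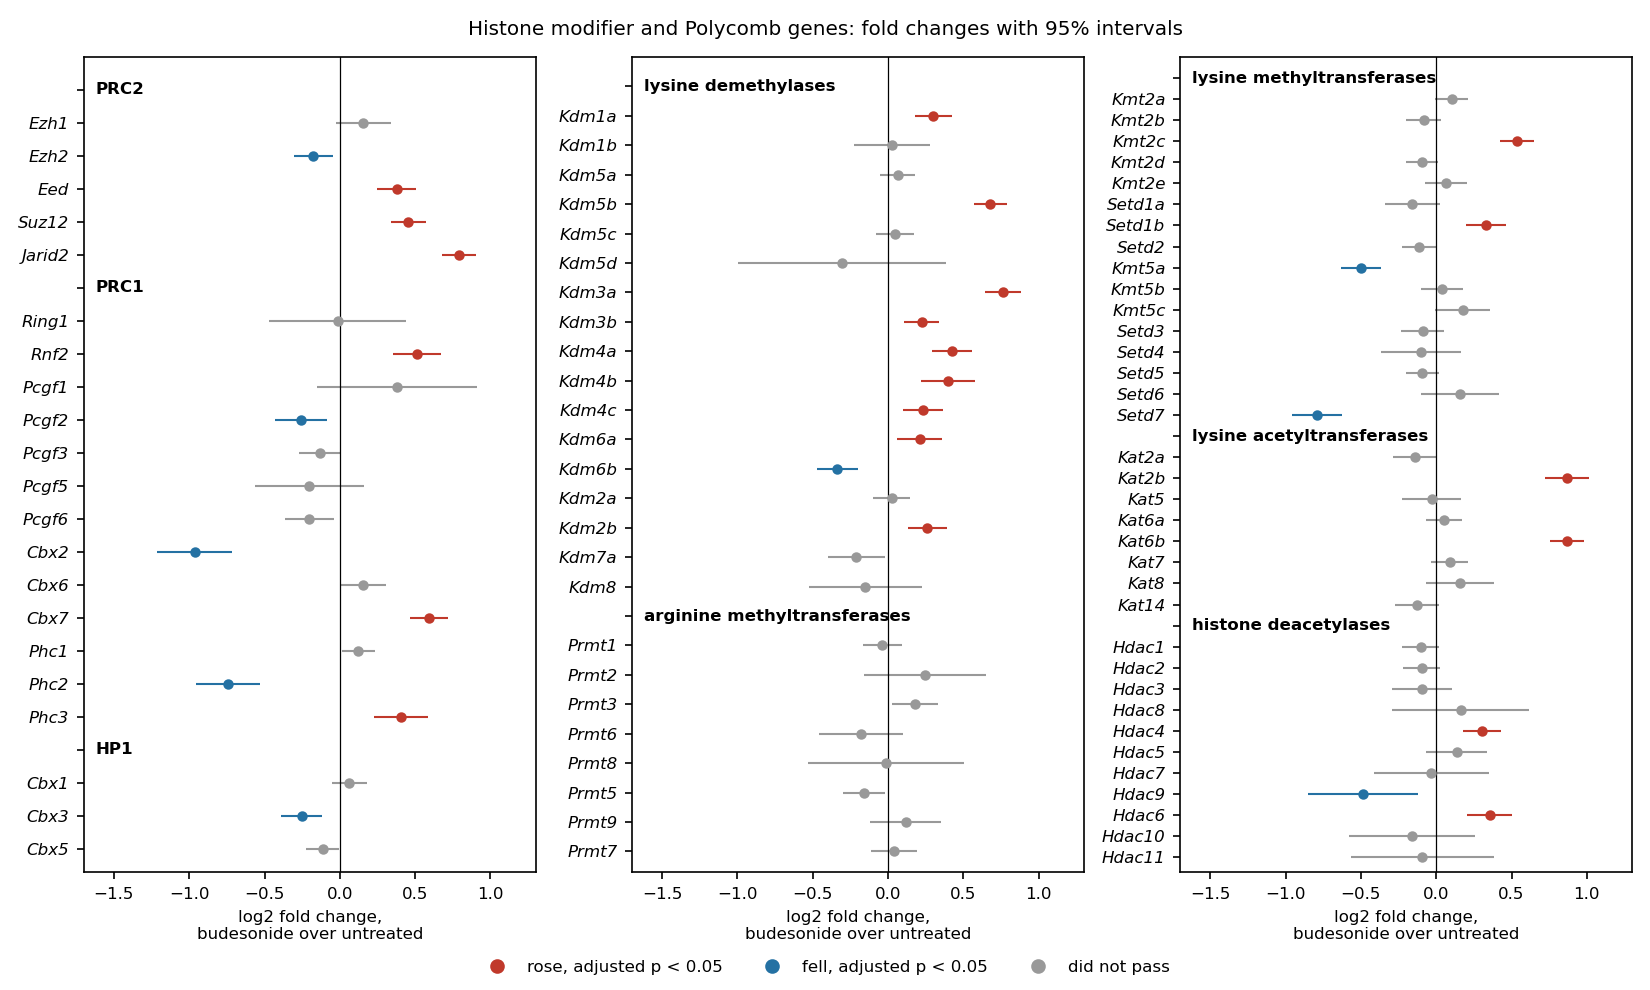
Log2 fold change, budesonide over untreated, of 81 of the 82 tested genes (horizontal axis) by class, with points at the edgeR estimate and bars for its 95% interval (n = 3 libraries per group), red where the gene rose, blue where it fell and grey where it did not pass. Most points lie within 0.5 of 0, and the lysine demethylases lie mostly to the right.

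The promoters of the genes with the smallest adjusted p in PRC2, PRC1 and the acetyltransferases, Jarid2, Cbx7 and Kat6b, are given here with that of Ezh2, the PRC2 gene that fell. Each window runs from 250 bases before to 50 after a RefSeq transcription start (build GRCm38.p6), 5′ to 3′, with CG dinucleotides in capitals, the feature to which Polycomb and its CpG-binding partners are known to be drawn. The windows are Jarid2 (chr13:44730524-44730823, plus strand, 24 CpG), Ezh2 (chr6:47594981-47595280, minus strand, 31 CpG), Cbx7 (chr15:79932597-79932896, minus strand, 33 CpG) and Kat6b (chr14:21499520-21499819, plus strand, 32 CpG). Jarid2 and Kat6b have another window each in the table, not shown.
Jarid2: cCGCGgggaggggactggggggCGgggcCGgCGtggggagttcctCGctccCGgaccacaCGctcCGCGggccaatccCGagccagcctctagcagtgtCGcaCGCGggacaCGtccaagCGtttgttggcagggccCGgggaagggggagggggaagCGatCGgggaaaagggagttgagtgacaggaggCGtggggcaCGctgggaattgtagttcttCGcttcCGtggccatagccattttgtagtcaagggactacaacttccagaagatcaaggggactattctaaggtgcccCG
Ezh2: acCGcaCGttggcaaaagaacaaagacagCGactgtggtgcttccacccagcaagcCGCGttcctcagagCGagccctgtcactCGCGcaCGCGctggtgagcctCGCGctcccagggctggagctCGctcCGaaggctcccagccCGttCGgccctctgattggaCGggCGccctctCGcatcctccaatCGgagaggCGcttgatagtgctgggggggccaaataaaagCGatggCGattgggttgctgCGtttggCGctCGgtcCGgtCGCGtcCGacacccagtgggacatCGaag
Cbx7: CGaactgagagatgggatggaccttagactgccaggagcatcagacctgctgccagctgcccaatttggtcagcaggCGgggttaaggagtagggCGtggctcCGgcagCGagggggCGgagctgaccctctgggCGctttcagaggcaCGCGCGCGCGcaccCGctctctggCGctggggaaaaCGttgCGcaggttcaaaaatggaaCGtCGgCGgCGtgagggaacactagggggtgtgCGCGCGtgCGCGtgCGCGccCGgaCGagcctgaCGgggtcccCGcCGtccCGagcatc
Kat6b: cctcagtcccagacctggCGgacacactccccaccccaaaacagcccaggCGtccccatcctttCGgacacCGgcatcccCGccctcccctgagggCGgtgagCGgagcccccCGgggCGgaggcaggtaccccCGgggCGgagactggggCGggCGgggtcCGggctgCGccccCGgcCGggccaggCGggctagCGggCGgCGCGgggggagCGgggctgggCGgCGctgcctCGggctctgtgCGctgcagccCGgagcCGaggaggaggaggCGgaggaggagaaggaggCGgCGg
All 4 windows were dense in CG, whether the gene rose or fell. RefSeq windows matched 69 of the 84 genes, with 95 windows and a median of 23 CG per window, against a median of 7 over all 32851 windows. That background was not limited to genes tested here, and none matched for expression was computed. The glucocorticoid response element, searched on both strands as the half-sites GNACA and TGTNC with 3 bases between them, was in none of the 95 windows and in 0.475% of all windows. At that share 95 windows are too few to read its absence as a result. The TCF/LEF motif CTTTGAT, also on both strands, was in 2 of them (Kmt2d and Phc1, neither called) and in 3.73% of all. The E-box CACGTG, which reads the same on both strands, was in 12.6% of the windows of these genes and in 7.15% of all. The E-box itself holds a CG, and no background matched for CG content was computed for any of these motifs.

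Of the 5 PRC2 genes the 3 without catalytic activity rose, and Ezh2 fell by a small margin. Jarid2, a cofactor that helps bring PRC2 to chromatin, had 794, 727 and 775 CPM in the budesonide libraries, against 477, 415 and 433 CPM in the untreated ones. It rose 1.73-fold (log2 fold change 0.79 ± 0.06, SE; adjusted p = 7.38e-16), and the groups lay far apart. Suz12, the scaffold of the core complex, had 291, 294 and 275 CPM in the budesonide libraries, against 204, 202 and 222 CPM in the untreated ones (log2 fold change 0.46 ± 0.06; adjusted p = 2.02e-08). Eed, the subunit that reads trimethylated H3K27, had 140.3, 133 and 137 CPM in the budesonide libraries, against 102, 107 and 107 CPM in the untreated ones (log2 fold change 0.38 ± 0.06; adjusted p = 6.18e-06). For both, every budesonide library was above every untreated library.

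Ezh2, the main methyltransferase of PRC2, had 141, 129 and 141 CPM in the budesonide libraries, against 159, 148 and 158 CPM in the untreated ones. It fell 1.13-fold (log2 fold change -0.18 ± 0.06; adjusted p = 0.0311) with groups that did not overlap, but the call was lost in DESeq2 (0.196), with limma (0.127), with the filter at 1 CPM (0.0559), without budesonide replicate 1 (0.0543), without budesonide replicate 2 (0.204), without untreated replicate 1 (0.116) or without untreated replicate 3 (0.137), adjusted p in brackets. Ezh1, its less active paralog, had 44.4, 41.1 and 42.3 CPM in the budesonide libraries, against 37.8, 38.7 and 38.3 CPM in the untreated ones, and its log2 fold change of 0.15 ± 0.09 did not pass (adjusted p = 0.218; 95% interval -0.03 to 0.34). The log2 ratio of Ezh1 to Ezh2 was -1.67, -1.65 and -1.74 with budesonide, against -2.07, -1.93 and -2.04 untreated, so the balance of the 2 genes stood higher for Ezh1 in every budesonide library. Scaled to transcript length, Ezh1 made up 17.1% ± 0.449 with budesonide and 14.1% ± 0.614 untreated of the EZH level (n = 3), and 23.6% with budesonide and 19.7% untreated when scaled to coding length.

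**Figure D2:**
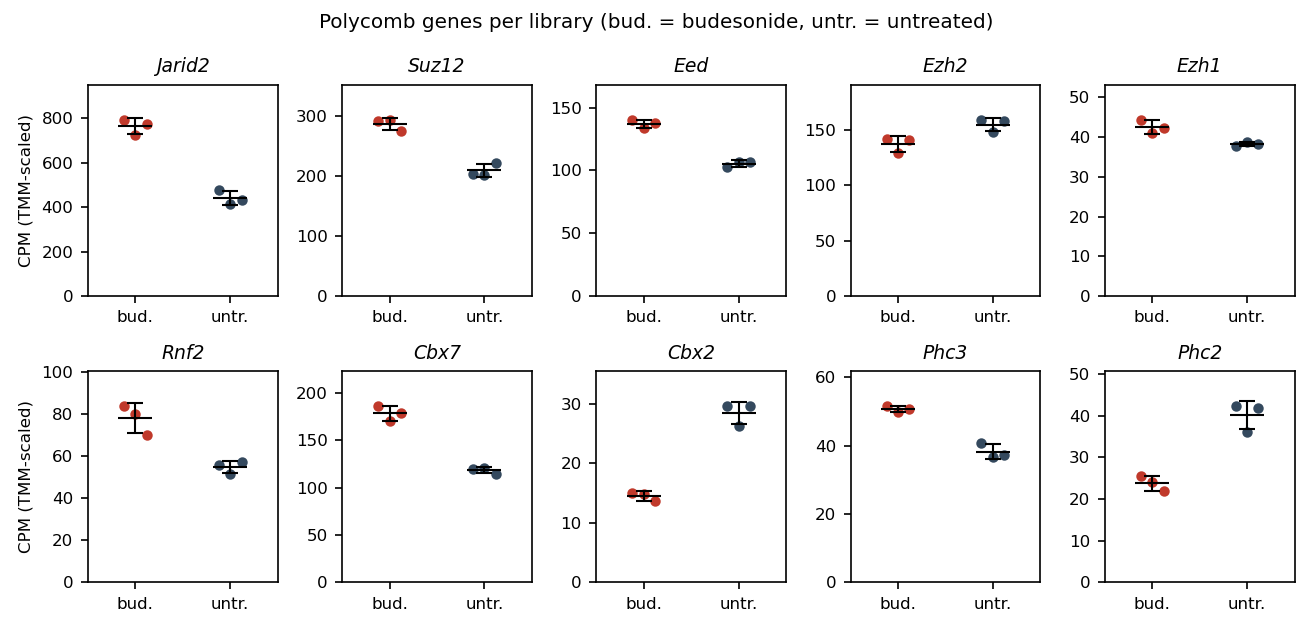
TMM-scaled CPM (vertical axes, from 0) of 10 Polycomb genes in each budesonide (red, left) and untreated library (grey, right), with the mean as a line and the SD as error bars (n = 3 per group). Jarid2, Suz12, Eed, Rnf2, Cbx7 and Phc3 stand higher and Cbx2 and Phc2 lower with budesonide without overlap, and Ezh1 and Ezh2 differ by little.

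Among PRC1 genes the ubiquitin ligase Rnf2 (RING1B) had 83.7, 80.2 and 70.0 CPM in the budesonide libraries, against 55.9, 51.6 and 57.2 CPM in the untreated ones. It rose 1.43-fold (log2 fold change 0.51 ± 0.08; adjusted p = 1.13e-06). Its paralog Ring1 was low, at 6.34, 4.71 and 5.70 CPM in the budesonide libraries, against 5.79, 6.05 and 5.03 CPM in the untreated ones, with a log2 fold change of -0.01 ± 0.23 that did not pass (adjusted p = 0.979) and an interval of -0.47 to 0.44. Per transcript length, Rnf2 made up 89.8% ± 1.51 with budesonide and 86.1% ± 1.71 untreated of the RING level (n = 3). No PCGF gene, the subunits that define the PRC1 variants, rose. Pcgf2 (MEL18), of the canonical complexes, had 45.8, 45.0 and 49.8 CPM in the budesonide libraries, against 61.1, 55.4 and 51.2 CPM in the untreated ones, and fell 1.20-fold (log2 fold change -0.26 ± 0.09; adjusted p = 0.0188), a call that was lost in DESeq2 (0.161), with limma (0.0651), without budesonide replicate 1 (0.0838), without budesonide replicate 2 (0.0907), without untreated replicate 1 (0.161) or without untreated replicate 2 (0.0502). Pcgf6, of a variant complex with the DNA-binding factor MGA, was at 57.9 ± 4.23 CPM with budesonide and 66.5 ± 5.79 CPM untreated (SD, n = 3 each) and did not pass (adjusted p = 0.0568), although its groups did not overlap. It passed as lower with upper quartile scaling (0.0104), with library totals alone (0.00573), without budesonide replicate 3 (0.041) or with a GC and length offset (0.028). Pcgf3 and Pcgf5 were at log2 fold changes of -0.13 and -0.20, and Pcgf1, the subunit of the KDM2B complex, at 0.38 with an interval of -0.15 to 0.91. None of these 3 passed, except Pcgf3 with upper quartile scaling (0.0235) and with library totals alone (0.0101).

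The CBX genes, whose chromodomains bind methylated H3K27, changed in opposite directions. Cbx7, the main CBX of canonical PRC1 in ESCs, had 186, 170.4 and 179 CPM in the budesonide libraries, against 119, 121 and 115 CPM in the untreated ones. It rose 1.51-fold (log2 fold change 0.59 ± 0.06; adjusted p = 1.38e-10). Cbx2, known to take over in differentiating cells, had 15.1, 14.9 and 13.6 CPM in the budesonide libraries, against 29.6, 26.3 and 29.5 CPM in the untreated ones. It fell 1.95-fold (log2 fold change -0.96 ± 0.12; adjusted p = 1.55e-08), the largest change among the 82 genes. The log2 ratio of Cbx7 to Cbx2 was 3.62, 3.52 and 3.72 with budesonide, against 2.01, 2.20 and 1.96 untreated, the widest shift of the 17 paralog pairs compared. Cbx6 was at 79.4 ± 2.63 CPM with budesonide and 71.4 ± 6.79 CPM untreated and did not pass (adjusted p = 0.127), except without untreated replicate 1 (0.0187) and with a GC and length offset (0.00619). Cbx8 had too few reads for a test, with 1.41, 1.18 and 0.552 CPM in the budesonide libraries, against 1.52, 0.281 and 1.26 CPM in the untreated ones. Per transcript length, Cbx7 made up 74.3% ± 1.43 with budesonide and 62.7% ± 2.26 untreated of the summed CBX level and Cbx2 5.38% ± 0.281 with budesonide and 13.4% ± 0.766 untreated (n = 3), and scaled to coding length Cbx7 75.8% with budesonide and 66.6% untreated and Cbx2 2.98% with budesonide and 7.74% untreated.

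The polyhomeotic genes, which let PRC1 cluster, split likewise. Phc2 had 25.5, 24.0 and 21.9 CPM in the budesonide libraries, against 42.2, 36.1 and 41.8 CPM in the untreated ones, and fell 1.67-fold (log2 fold change -0.74 ± 0.11; adjusted p = 1.7e-07). Phc3 had 51.6, 49.9 and 50.7 CPM in the budesonide libraries, against 40.9, 36.7 and 37.2 CPM in the untreated ones, and rose 1.33-fold (log2 fold change 0.41 ± 0.09; adjusted p = 0.000276). Phc1, which per transcript length made up 92.9% ± 0.527 with budesonide and 90.4% ± 0.562 untreated of the PHC level, was at 592 ± 28.6 CPM with budesonide and 543 ± 5.09 CPM untreated and did not pass (log2 fold change 0.12 ± 0.05; adjusted p = 0.0796), except without budesonide replicate 2 (0.011) and with a GC and length offset (0.024). Its share was higher in every budesonide library.

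**Figure D3:**
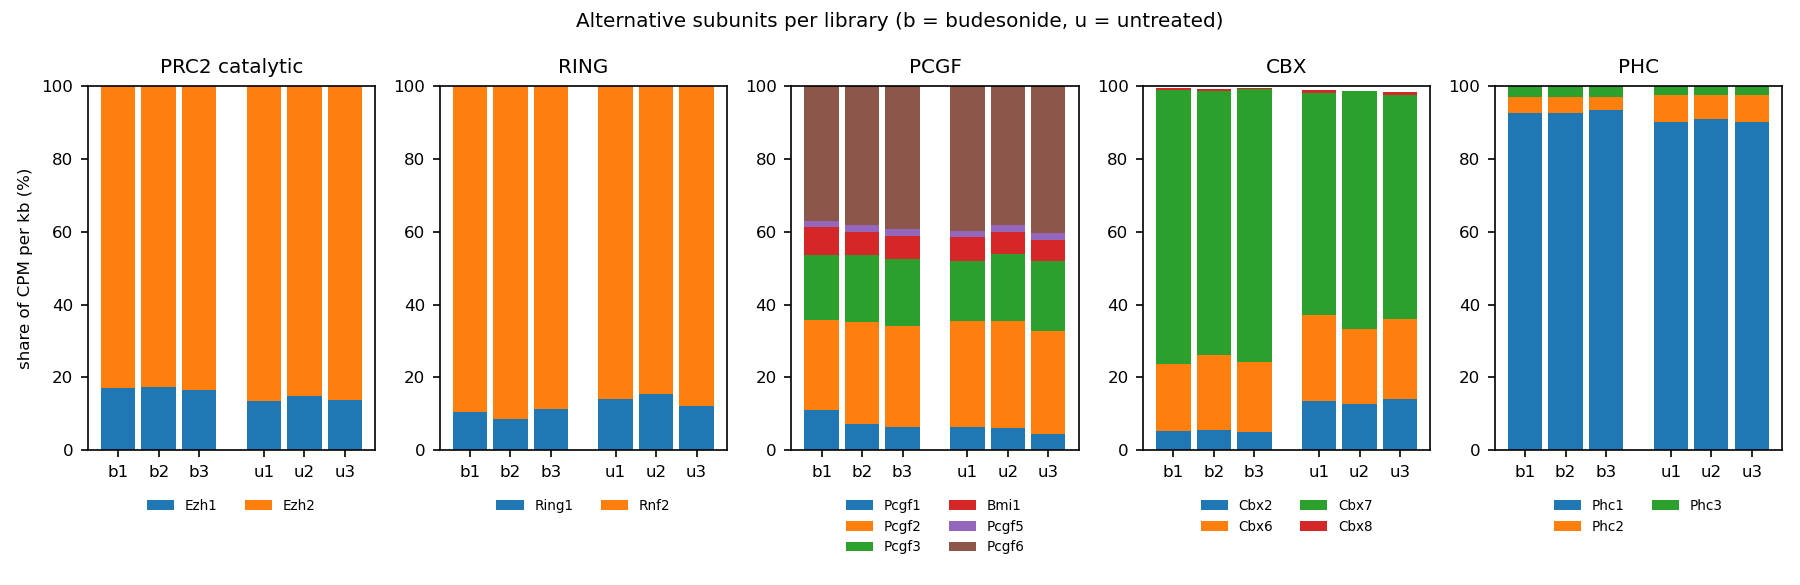
Share (%) of the alternative subunits of 5 Polycomb positions in each library, from CPM per kb of the longest GENCODE M21 transcript, stacked, with budesonide libraries (b) left of untreated ones (u). Cbx7 takes a larger and Cbx2 a smaller part of the CBX position with budesonide, and the PCGF position, shown with the related gene Bmi1, is nearly even between groups.

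Of the HP1 genes, which encode readers of methylated H3K9, Cbx3 (HP1γ) had 105, 99.8 and 91.7 CPM in the budesonide libraries, against 114, 120.5 and 119.7 CPM in the untreated ones, and fell 1.19-fold (log2 fold change -0.25 ± 0.07; adjusted p = 0.00284). Cbx1 (HP1β) was at 314 ± 8.14 CPM with budesonide and 300.4 ± 20.9 CPM untreated and did not pass. Cbx5 (HP1α) was at 428 ± 10.9 CPM with budesonide and 463 ± 19.6 CPM untreated and did not pass (adjusted p = 0.123), but did so as lower with upper quartile scaling (0.00768) and with library totals alone (0.0028). The table lists 8 Cbx3 pseudogenes with at most 6 reads in any library; how reads shared between Cbx3 and its copies were assigned is not given in the sources used here.

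Of 17 tested lysine demethylase genes 9 rose and 1 fell, with a median log2 fold change of 0.21. Among the 15 with a mean of at least 10 CPM 9 rose, which is 60.0%, against 24.5% of all genes at that level. The 5 tested genes with Kdm3 or Kdm4 symbols, whose families remove methyl groups from H3K9, rose. Jmjd1c, a KDM3 family gene that the symbol rule does not take, was at a log2 fold change of 0.12 ± 0.05 and did not pass (adjusted p = 0.084), other than in DESeq2 (0.0383), without budesonide replicate 2 (0.0333) and with a GC and length offset (0.0237). Kdm3a, which removes mono- and dimethylation, had 276, 288 and 289.6 CPM in the budesonide libraries, against 162, 165 and 176 CPM in the untreated ones. It rose 1.70-fold (log2 fold change 0.76 ± 0.06; adjusted p = 9.81e-15), and its paralog Kdm3b 1.17-fold (0.22 ± 0.06; adjusted p = 0.00259). Kdm4a, of the family that removes trimethylation from H3K9 and H3K36, had 163, 146 and 164 CPM in the budesonide libraries, against 111, 117 and 125 CPM in the untreated ones, and rose 1.34-fold (log2 fold change 0.42 ± 0.07; adjusted p = 1.23e-06). Kdm4b rose 1.32-fold and Kdm4c 1.17-fold, with adjusted p = 0.000449 and 0.00495. In these 5 genes no budesonide library was below any untreated library. The call of Kdm4c was lost with library totals alone (0.061) or without untreated replicate 2 (0.0684). Kdm4d had too few reads for a test, with 1.83, 0.589 and 0.552 CPM in the budesonide libraries, against 0.457, 0.984 and 0.628 CPM in the untreated ones.

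Of the H3K4 demethylases, Kdm5b, which removes trimethylation at promoters, had 690.3, 666 and 684 CPM in the budesonide libraries, against 401, 428 and 444 CPM in the untreated ones. It rose 1.60-fold (log2 fold change 0.68 ± 0.05; adjusted p = 2.93e-14). Kdm1a (LSD1), an eraser of mono- and dimethylation, had 253, 232 and 254 CPM in the budesonide libraries, against 198, 211 and 190.3 CPM in the untreated ones, and rose 1.23-fold (log2 fold change 0.30 ± 0.06; adjusted p = 9.05e-05). The related genes did not pass: Kdm1b was at a log2 fold change of 0.03 ± 0.13, Kdm5a at 0.06 ± 0.06, Kdm5c at 0.05 ± 0.06 and the Y-linked Kdm5d, at 2.20 and 2.69 CPM in budesonide and untreated libraries, at -0.30 ± 0.34. Between Kdm5b and Kdm5a the log2 ratio was 1.52, 1.58 and 1.61 with budesonide, against 0.84, 0.99 and 1.03 untreated.

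The H3K27 demethylases, which undo the mark of PRC2, moved apart. Kdm6b (JMJD3) had 109.9, 104 and 123 CPM in the budesonide libraries, against 149, 145 and 131 CPM in the untreated ones. It fell 1.26-fold (log2 fold change -0.34 ± 0.07; adjusted p = 0.000125). The antisense gene Kdm6bos, listed beside it, had at most 5 reads in a library. Kdm6a (UTX) had 104, 85.6 and 90.5 CPM in the budesonide libraries, against 79.4, 76.5 and 87.0 CPM in the untreated ones, with overlapping groups. Its rise (0.21 ± 0.08; adjusted p = 0.0297) was lost with upper quartile scaling (0.0947), with library totals alone (0.178), in DESeq2 (0.0973), with no filter on low counts (0.143), without budesonide replicate 1 (0.34), without untreated replicate 1 (0.0507) or without untreated replicate 2 (0.165). Kdm2b, whose zinc finger binds unmethylated CpG and brings a variant PRC1 there, had 311, 276 and 327 CPM in the budesonide libraries, against 279, 249 and 234 CPM in the untreated ones. It rose 1.20-fold (log2 fold change 0.26 ± 0.06; adjusted p = 0.00137), although untreated replicate 1 lay above budesonide replicate 2. Kdm2a, its paralog, was at 0.02 ± 0.06, Kdm8 at -0.15 ± 0.19 and Kdm7a, an eraser at H3K9 and H3K27, at -0.21 ± 0.09 on the log2 scale. None of the 3 passed, apart from Kdm7a with upper quartile scaling (0.024), with library totals alone (0.0138) and without budesonide replicate 1 (0.0421).

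**Figure D4:**
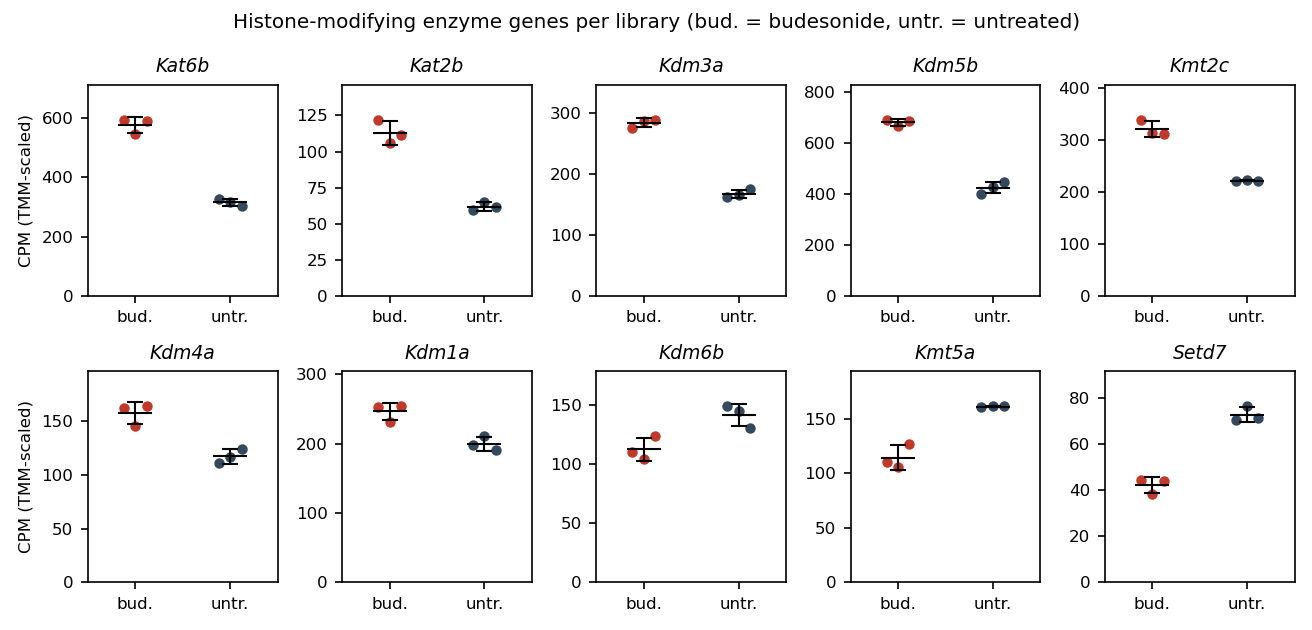
TMM-scaled CPM (vertical axes, from 0) of 10 histone-modifying enzyme genes in each budesonide (red, left) and untreated library (grey, right), with mean and SD (n = 3 per group). In 7 of them, from Kat6b to Kdm1a, every budesonide library is above every untreated one, and in Kdm6b, Kmt5a and Setd7 every one is below.

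Most lysine methyltransferase genes did not pass the test. Kmt2c (MLL3), which monomethylates H3K4 at enhancers, had 338, 313 and 312 CPM in the budesonide libraries, against 220.0, 223 and 221 CPM in the untreated ones. It rose 1.45-fold (log2 fold change 0.54 ± 0.06; adjusted p = 1.63e-10). Its paralog Kmt2d (MLL4) was at 685 ± 35.7 CPM with budesonide and 730.4 ± 17.6 CPM untreated, a log2 fold change of -0.09 ± 0.05 that did not pass, other than as lower with upper quartile scaling (0.0168) and with library totals alone (0.0054). Setd1b, which trimethylates H3K4 at promoters, had 155, 151 and 156 CPM in the budesonide libraries, against 134, 123 and 111 CPM in the untreated ones, and rose 1.26-fold (log2 fold change 0.33 ± 0.07; adjusted p = 8.64e-05). Its paralog Setd1a was at -0.16 ± 0.09 and did not pass, other than as lower with library totals (0.0414). Kmt2a, Kmt2b and Kmt2e ran from -0.08 to 0.10 on the log2 scale and did not pass, save Kmt2b with library totals alone (0.0195).

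The falls in this class were Setd7 and Kmt5a. Setd7, which monomethylates H3K4 and also proteins other than histones, had 44.4, 38.1 and 43.9 CPM in the budesonide libraries, against 70.6, 76.3 and 71.2 CPM in the untreated ones. It fell 1.73-fold (log2 fold change -0.79 ± 0.08; adjusted p = 1.03e-10). Kmt5a, the enzyme of H4K20 monomethylation, had 110.2, 106 and 127 CPM in the budesonide libraries, against 161, 161 and 161 CPM in the untreated ones. It fell 1.41-fold (log2 fold change -0.50 ± 0.07; adjusted p = 4.28e-08), while Kmt5b and Kmt5c, which add further methyl groups to H4K20, were at 0.04 ± 0.07 and 0.18 ± 0.09 and did not pass, apart from Kmt5c without untreated replicate 1 (0.0311) and with a GC and length offset (0.0109). Setd2, which trimethylates H3K36, was at -0.11 ± 0.06 and Setd5 at -0.09 ± 0.05. Neither passed except with upper quartile scaling (0.0117 and 0.0207) and with library totals alone (0.00354 and 0.00656). Setd3, an actin methyltransferase, Setd4 and Setd6 were at log2 fold changes of -0.09, -0.10 and 0.16 and did not pass.

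None of the 8 arginine methyltransferase genes passed in edgeR, DESeq2 or limma. At an unadjusted p under 0.05 there were 2, Prmt3 and Prmt5. Prmt5, the main enzyme of symmetric dimethylation, had 94.7, 87.3 and 92.1 CPM in the budesonide libraries, against 103, 97.4 and 105 CPM in the untreated ones (log2 fold change -0.16 ± 0.07; adjusted p = 0.0787). It passed as lower with upper quartile scaling (0.0108) and with library totals alone (0.00438). Prmt3, which acts on a ribosomal protein, was at 70.4 ± 1.91 CPM with budesonide and 62.2 ± 3.50 CPM untreated (adjusted p = 0.0755) and passed as higher without untreated replicate 3 (0.0482). Prmt1, the main enzyme of asymmetric dimethylation, was at 131 ± 5.84 CPM with budesonide and 134 ± 2.43 CPM untreated, and its 95% interval, -0.16 to 0.09 on the log2 scale, holds only small changes. Prmt2, Prmt6, Prmt7, Prmt8 and Prmt9 ran from -0.18 to 0.24 on the log2 scale. Of 3 arginine methyltransferase genes that the symbol rule does not take, none rose and 1 fell in edgeR. That gene was Carm1, 1.45-fold lower with budesonide (adjusted p = 2.08e-09).

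Among the acetyltransferases, 2 of 8 genes rose, each with a paralog that did not pass. Kat6b (MORF), which with its paralog acetylates H3K23, had 595, 546 and 591 CPM in the budesonide libraries, against 328, 317 and 303 CPM in the untreated ones. It rose 1.83-fold (log2 fold change 0.87 ± 0.06), with the smallest adjusted p of the 82 genes, 2.36e-17. Kat6a (MOZ) was at 249.8 ± 14.7 CPM with budesonide and 241 ± 6.94 CPM untreated and did not pass (adjusted p = 0.558). Kat2b (PCAF), a coactivator that acetylates H3K9, had 122, 106 and 111 CPM in the budesonide libraries, against 59.3, 65.0 and 61.4 CPM in the untreated ones. It rose 1.83-fold (log2 fold change 0.87 ± 0.07; adjusted p = 1.31e-13), the largest rise of the 82 genes. Kat2a (GCN5) was at 103 ± 5.22 CPM with budesonide and 113 ± 11.4 CPM untreated and did not pass (adjusted p = 0.14), but did as lower with upper quartile scaling (0.0298), with library totals alone (0.0151) and without untreated replicate 3 (0.0381). The log2 ratio of Kat2b to Kat2a was 0.33, 0.03 and 0.06 with budesonide, against -1.01, -0.88 and -0.70 untreated, below 0 in each untreated library and above 0 in each budesonide library. Listed pseudogene copies had at most 39 reads in a library for Kat6b and 5 for Kat2b. The remaining genes, Kat5 (TIP60), Kat7 (HBO1), Kat8 (MOF, the H4K16 enzyme) and Kat14 (of the ATAC complex), ran from -0.13 to 0.16 and did not pass, except Kat14 as lower with library totals alone (0.0248).

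The class I deacetylases did not pass. They include Hdac1, Hdac2 and Hdac3, catalytic subunits of the NuRD, SIN3, CoREST and NCoR complexes. Hdac1 had 171, 151 and 169 CPM in the budesonide libraries, against 174, 179.8 and 173 CPM in the untreated ones (log2 fold change -0.10 ± 0.06). Hdac2 had 178, 162 and 165 CPM in the budesonide libraries, against 180.0, 174 and 186 CPM in the untreated ones (log2 fold change -0.10 ± 0.06). The groups of both lay close together. Both passed as lower with upper quartile scaling (0.0329 and 0.0394) and with library totals alone (0.0137 and 0.0155). The table also lists a Hdac1 pseudogene at 43 to 93 reads per library. Hdac3 and Hdac8 were at -0.10 and 0.16. Hdac6, a cytoplasmic enzyme best known for deacetylating tubulin, had 88.3, 84.6 and 87.1 CPM in the budesonide libraries, against 67.4, 61.7 and 74.5 CPM in the untreated ones, and rose 1.28-fold (log2 fold change 0.36 ± 0.07; adjusted p = 0.000189). Hdac4, a class IIa enzyme that shuttles between nucleus and cytoplasm, had 154, 153 and 160.5 CPM in the budesonide libraries, against 122, 126 and 130.2 CPM in the untreated ones, and rose 1.24-fold (log2 fold change 0.31 ± 0.06; adjusted p = 0.000118). For both, the groups did not overlap. Hdac9, of the same class as Hdac4, had 8.17, 7.95 and 6.07 CPM in the budesonide libraries, against 10.2, 11.4 and 9.74 CPM in the untreated ones. Its fall (-0.49 ± 0.18; adjusted p = 0.038) was lost in DESeq2 (0.201), with no filter on low counts (0.0671), without budesonide replicate 2 (0.0546), without budesonide replicate 3 (0.172), without untreated replicate 1 (0.0673), without untreated replicate 2 (0.165), without untreated replicate 3 (0.0561) or with a GC and length offset (0.0511). Hdac5, Hdac7, Hdac10 and Hdac11 ran from -0.16 to 0.14 and did not pass, except Hdac5 as higher with a GC and length offset (0.0408). All except Hdac5 were under 10 CPM in both group means, and their intervals are wide, -0.58 to 0.26 for Hdac10, for example.

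Paralogs were compared directly through the log2 ratio of 17 pairs within each library, which does not depend on how libraries are scaled. In 13 of the 17 pairs the ratios of the 2 groups did not overlap, and in 4 they did (Pcgf6 to Pcgf2, Kdm2b to Kdm2a, Kmt5c to Kmt5b and Hdac2 to Hdac1). The pairs were chosen with earlier results of these data known, and the share of other gene pairs with such ratios was not computed. With 3 libraries against 3 an exact two-sided permutation test cannot give less than p = 0.1, and the ratios are given as a description. After Cbx7 to Cbx2, the widest shifts were those of Kat2b to Kat2a (1.00 on the log2 scale, budesonide minus untreated), Phc1 to Phc2 (0.87) and Kat6b to Kat6a (0.82). Kmt2d to Kmt2c shifted by -0.63 and Kdm6b to Kdm6a by -0.54. The ratio of Hdac2 to Hdac1 was 0.06, 0.10 and -0.03 with budesonide, against 0.05, -0.04 and 0.10 untreated, within a narrow band in both groups.

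**Figure D5:**
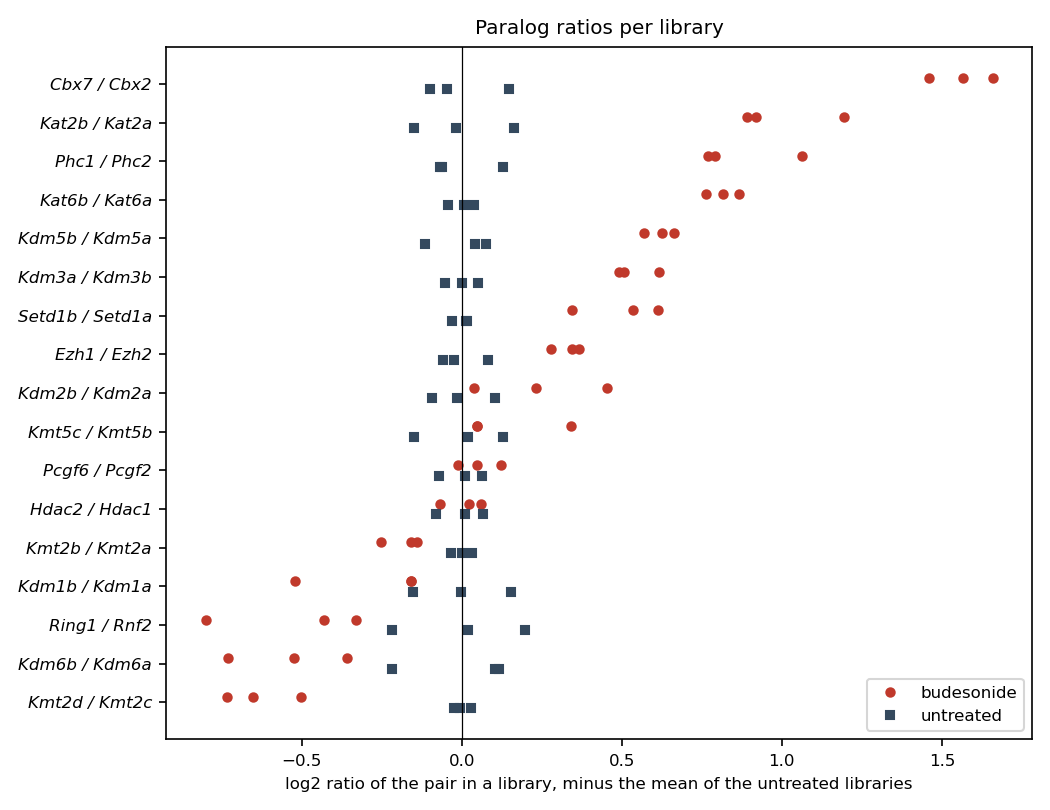
Log2 ratio of CPM of 17 paralog pairs in each library (horizontal axis), after subtracting the pair's mean over the untreated libraries, with budesonide libraries as red circles above untreated ones as grey squares. The Cbx7 to Cbx2 ratio is shifted most, and 4 pairs near the middle overlap.

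Genes of the same complexes that the symbol rule does not take also moved in both directions, beside 15.2% higher and 13.5% lower of all genes tested, and 24.5% higher and 17.2% lower of all genes averaging 10 CPM or more. Of the PRC2 cofactors 3 of 9 rose and 3 fell. Mtf2, a cofactor that binds CpG-rich DNA, was at 317 ± 17.3 CPM with budesonide and 234 ± 4.40 CPM untreated and rose 1.36-fold (adjusted p = 3.09e-08). Phf19 rose on few reads, at 7.98 ± 2.32 CPM with budesonide and 4.63 ± 0.982 CPM untreated (adjusted p = 0.00914), a call lost in DESeq2 (0.0604), without budesonide replicate 1 (0.0959) or without untreated replicate 1 (0.0589). Epop, a PRC2 partner of ESCs, was at 85.7 ± 5.82 CPM with budesonide and 126 ± 1.66 CPM untreated and fell 1.47-fold, and the histone chaperone Rbbp7 fell 1.24-fold. Of the PRC1 cofactors 5 of 18 rose and 5 fell. The paralogs Rybp and Yaf2, alternative subunits of variant PRC1, moved apart: Rybp was at 82.5 ± 4.56 CPM with budesonide and 60.0 ± 6.42 CPM untreated and rose, and Yaf2 was at 15.2 ± 2.31 CPM with budesonide and 29.4 ± 2.90 CPM untreated and fell (adjusted p = 8.76e-06 and 2.98e-08). Bcorl1, a paralog of the PRC1 subunit Bcor, fell 2.23-fold, and Fbrsl1, a homolog of the PRC1 cofactor Auts2, rose 1.35-fold. In the complex of the H2A deubiquitinase BAP1, 3 of 9 genes fell and none rose. Mbd6 fell 1.27-fold and Bap1 1.18-fold. The call of Mbd6 was lost with a GC and length offset (0.0942), and that of Bap1 in DESeq2 (0.135), with limma (0.0535), without budesonide replicate 2 (0.183) or without untreated replicate 3 (0.0755).

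Of the subunits listed for the H3K4 methyltransferase complexes, not all of them shared between the complexes, 5 of 11 rose and 2 fell. The core subunits Rbbp5, at 129.6 ± 6.03 CPM with budesonide and 76.8 ± 5.15 CPM untreated, and Ash2l, at 301 ± 10.7 CPM with budesonide and 201 ± 15.3 CPM untreated, rose 1.69-fold and 1.49-fold. Psip1 and Paxip1 fell 1.24-fold and 1.21-fold. Other lysine methyltransferases gave 4 rises and 5 falls among 20. Nsd2, which dimethylates H3K36, was at 106 ± 1.46 CPM with budesonide and 252 ± 7.56 CPM untreated and fell 2.39-fold (log2 fold change -1.25 ± 0.06; adjusted p = 1.85e-21), beyond any of the 82 genes. Mecom also fell (-0.98 ± 0.17), and Smyd3 (0.64 ± 0.08) and Prdm16 (0.89 ± 0.21) rose. Other demethylases and related genes gave 1 rise, Hspbap1 (1.28-fold), and 2 falls among 9, Phf2 (1.80-fold) and the Y-linked Uty (1.25-fold). The call of Uty was lost in DESeq2 (0.14), without budesonide replicate 3 (0.0845), without untreated replicate 2 (0.0605) or without untreated replicate 3 (0.0874).

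Other acetyltransferases and their subunits gave 7 rises and 3 falls among 24. Jade1, a scaffold of HBO1 complexes, was at 715 ± 51.0 CPM with budesonide and 409 ± 12.2 CPM untreated and rose 1.75-fold, its paralog Jade2 fell 1.36-fold, the coactivator Ncoa3 rose 1.76-fold, and Msl1, the scaffold of a MOF complex, was at 35.3 ± 4.13 CPM with budesonide and 81.6 ± 2.40 CPM untreated and fell 2.30-fold. Of 7 sirtuins, the NAD-dependent deacetylases, 1 passed: Sirt1 was at 124 ± 4.79 CPM with budesonide and 72.4 ± 1.76 CPM untreated and rose 1.71-fold (adjusted p = 6.26e-13). Subunits of the deacetylase complexes gave 6 rises and 6 falls among 23. The NuRD subunits went both ways, with Mta3 1.49-fold higher and Mta1 1.33-fold and Chd3 1.92-fold lower, and Sin3b rose 1.39-fold. Of 3 other arginine methyltransferase genes Carm1, a coactivator enzyme, was at 152 ± 12.5 CPM with budesonide and 219 ± 6.63 CPM untreated and fell 1.45-fold (adjusted p = 2.08e-09).

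Markers of cell states moved with these genes. Of 11 tested naive ESC markers 10 rose and none fell, and the 12 listed summed to 1306 to 1432 CPM with budesonide and 586 to 653 CPM untreated. All 9 tested streak and tailbud markers fell, and the 12 listed summed to 13.8 to 18.0 CPM with budesonide and 293 to 312 CPM untreated. The other marker sums were lower or closer between groups, with neural markers at 39.3 to 44.1 CPM with budesonide and 34.7 to 39.2 CPM untreated (2 of 6 rose, 3 fell), endoderm markers at 6.62 to 8.68 CPM with budesonide and 15.6 to 22.4 CPM untreated (1 of 4 fell), mesoderm and cardiac markers at 36.5 to 41.7 CPM with budesonide and 30.1 to 35.5 CPM untreated (1 of 2 rose) and trophoblast markers at 40.4 to 49.2 CPM with budesonide and 40.4 to 51.4 CPM untreated (1 of 4 rose, 1 fell). Of 20 proliferation genes 1 rose and 4 fell, and they summed to 4404 to 4646 CPM with budesonide and 4657 to 4777 CPM untreated. Mitochondrial transcripts held 11.5 to 13.4% of reads with budesonide and 10.4 to 12.3% untreated. No marker of these lists was at 0 reads in every library of both groups together. Their part in the changes of the histone modifier and Polycomb genes was not tested.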

How the data were processed

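Reads of stranded mRNA libraries were, per the submitters' processing notes, trimmed with cutadapt 2.5, aligned with STAR 2.7.5c and counted with featureCounts 2.0 on GRCm39, with annotation, strand setting and other parameters not given in the sources used here, so antisense and near-identical genes can share reads. The authors deposited raw counts per gene symbol, used for every test, and a normalized signal (count divided by 1 factor per library, from DESeq2 as the processing notes name it), used only in an alternative. Groups and replicate numbers came from sample titles. Genes were kept by filterByExpr (minimum count 10, total 15), TMM-scaled and tested with edgeR 4.0.16 in R 4.3.3 (robust quasi-likelihood, group as the only term), with Benjamini-Hochberg adjustment over all genes and a threshold of 0.05. Standard errors were derived from the F statistic. The script was first tested on simulated data. In a library 3 reads correspond to 0.422 to 0.552 CPM. Beyond counting noise, libraries of a group varied by 5.73% (edgeR's common coefficient of variation). Levels per length used the longest GENCODE M21 transcript (GRCm38), given for all 82 tested genes; promoter windows are RefSeq's. Of the 84 genes 1, and 1 gene of the lists, are not reported here, though all counts hold them; those with library values are the PRC2 and RING genes and up to 4 rises and 4 falls per class with the smallest adjusted p, with further genes added after their values were seen, and of each list up to 2 rises and 2 falls are named. The genes, lists, pairs, motifs and the 10 CPM level were chosen with earlier results of these data known. Alternatives were RLE, upper quartile and no scaling, DESeq2 1.42.0, limma 3.58.1 on log2 of the normalized values plus 1, no filter, a filter at 1 CPM in 3 libraries, the replicate number as a block, each library left out, a threshold of 0.01 and, added after seeing the data, GC and length offsets.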

Additional observations from a re-analysis of the deposited data

How the results depend on the processing

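Of the 30 called genes 25 kept their call and direction in all 16 alternatives; Ezh2, Pcgf2, Kdm4c, Kdm6a and Hdac9 lost it in some. Of the 52 others 32 never passed. No called gene of the 82 changed sign. The number that fell, 9, was 20 with upper quartile scaling and 24 with library totals alone, which place all genes lower (median log2 fold change -0.07 and -0.10, against -0.02). Leaving out a library gave 26 to 30 called genes, and 50 to 62 of the other pathway genes, against 62. DESeq2 called 20 rises and 6 falls among the 82. The GC and length offset gave 25 rises and 9 falls, with PRC1 rises at 5 against 3; the cause was not tested. With the replicate number as a block, 30 genes were called, as without. Same-numbered libraries deviated together with correlations of 0.04, 0.06 and -0.02. Budesonide replicates 1 and 2 correlated best with the untreated library of their number, and budesonide replicate 3 with untreated replicate 1. Values so near 0 cannot tell whether same-numbered samples share a culture. Levels per length depend on the length used: scaled to coding length Pcgf3 made up 50.1% with budesonide and 49.5% untreated of the PCGF level, against 18.2% ± 0.182 with budesonide and 18.0% ± 1.31 untreated per longest transcript. Below 10 CPM intervals are wide, so small changes were not detectable at this depth.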
